A study of Saccharomyces cerevisiae with 8 samples.

Results

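The regions described are stretches of the budding yeast genome whose ratio of copy number at 30 over 40 min after release was high in Mcm6-SuOn cells and not as high in Mcm6-ctrl cells. Genomic DNA of 8 samples was sequenced to read copy number, with 1 library for each of 2 genotypes at 0, 15, 30 and 40 min after release from a block before S phase. Each window of 1000 bp received a value E, its relative copy number at 30 min divided by that at 40 min, smoothed as the rolling median of 21 windows placed every 500 bp. The members were chosen by E, and so by the 30 and 40 min libraries: windows were kept if E was in the top 15% in Mcm6-SuOn and outside the top 20% in Mcm6-ctrl. The rule covered 11 chromosomes (II, V, VII to XI and XIII to XVI), more than 30 kb from their ends, where the ratio was above 0 in all 6 later libraries. It found 1061 members among 15570 eligible windows (6.81%), of 24133 windows in all. Joined over gaps of at most 2 windows, they formed 69 zones with a median length of 7.5 kb, from 1 to 31 kb, and 572 kb in total.

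Both strains were of the W303 background and were written as diploids, homozygous for the temperature-sensitive allele cdc7-4 and heterozygous for Mcm6-aid::HIS3 and ADH1-TIR::URA. The Mcm6-SuOn strain carried Mcm6-SuOn::KAN/+ and the Mcm6-ctrl strain Mcm6-ctrl::KAN/+. In both, nocodazole arrested the cells in G2/M, auxin (IAA) was then given to remove Mcm6-aid, and a shift to the restrictive temperature inactivated cdc7-4 until rapid cooling released the cells into S phase. What SuOn stands for is not spelled out in the labels, and each genotype had 1 library per time, so that genotype and library cannot be told apart. The genotypes are compared here in how copy number along the genome changed after release.

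DNA replication in yeast starts at many origins, each licensed in advance by a ring of MCM proteins that includes Mcm6. The kinase Cdc7 acts on this ring to turn it into an active helicase, and origins fire in a loose order from early to late S phase. DNA copied early is over-represented among reads in early S phase and loses this lead once the rest of the genome has been copied. A high E therefore marks DNA whose share of reads was larger at 30 min than at 40 min. Regions close to chromosome ends usually replicate late in wild-type yeast. Since only shares are measured, a change common to the whole genome cannot be seen.

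With 1 library per genotype and time, no difference has a replicate check and no test between genotypes was made. Intervals on ratios of reads are 95% exact binomial intervals and cover counting error only. Intervals on medians over zones are 95% order-statistic intervals and describe the spread among zones of these libraries. Median depth in eligible windows lay between 1189 reads (Mcm6-SuOn, 15 min) and 2012 reads (Mcm6-SuOn, 40 min). The 0 min libraries of the genotypes differed toward chromosome ends. At 30 to 60 kb from an end the median read share of Mcm6-SuOn over Mcm6-ctrl was 1.12, against 0.959 beyond 200 kb. E contains no 0 min reads, because the 0 min counts of a genotype cancel in the ratio of 30 to 40 min.

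The values that chose the members are given as a description. Relative to the median eligible window of each genotype, members had a median E of 1.11 in Mcm6-SuOn, with a range of 1.08 to 1.28. In Mcm6-ctrl their median E was 1.02, with a range of 0.876 to 1.07. Just inside the Mcm6-SuOn threshold the lowest member stood at 1.08093, and the highest window just outside it at 1.08077. For Mcm6-ctrl, the highest member stood at 1.06694 and the lowest window just outside at 1.06709. The border was crowded, with 351 members (33.1%) within 1% of either threshold. Members lay on both sides of the Mcm6-ctrl median: their median percentile of E was 90.6 in Mcm6-SuOn and 62.8 in Mcm6-ctrl, and 322 of them (30.3%) lay below it in Mcm6-ctrl. When reads were summed over each zone, the interval lay beyond both thresholds in 22 of the 69 zones. Across eligible windows, E of the genotypes correlated at r = 0.643 (Spearman 0.623). This is a description of 15570 overlapping windows that share libraries.

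**Figure D1:**
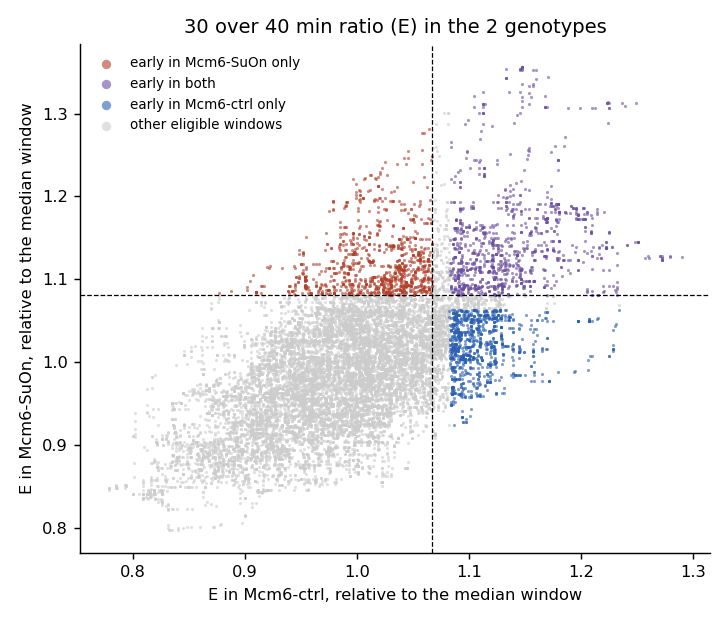
E, the 30 over 40 min ratio of copy number, in Mcm6-SuOn (vertical) and Mcm6-ctrl (horizontal), each relative to its median window and drawn as 1 point per eligible window. Dashed lines are the thresholds of 1.08 and 1.07, and the 1061 members fill the upper left field up to the control threshold, with a median Mcm6-ctrl value of 1.02.

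The genotypes differed more at 40 min than at 30 min in these zones. The read share of a zone was divided by the mean share of the same zone in both 0 min libraries, so that 1 means the share before release, pooled over the genotypes. By construction the 0 min levels of the genotypes mirror each other around 1. Over the 69 zones this level had medians of 1.04, 1.05, 1.08 and 0.970 in Mcm6-SuOn at 0, 15, 30 and 40 min. In Mcm6-ctrl the medians were 0.962, 1.04, 1.07 and 1.05. Zones thus stood above 1 in both genotypes at 15 and 30 min, and at 40 min the median had dropped below 1 in Mcm6-SuOn while it had stayed above 1 in Mcm6-ctrl. The share at 40 min over that at 30 min had a median of 0.897 in Mcm6-SuOn (range 0.812 to 1.04) and 0.977 in Mcm6-ctrl (range 0.841 to 1.107). In the rolling median all 1061 members were lower at 40 than at 30 min in Mcm6-SuOn, which the threshold on E fixed in advance. Of eligible windows, 52.5% were lower. In Mcm6-ctrl 756 members (71.3%) were lower, against 51.5%, in libraries that the rule also used. Between 15 and 30 min the median change was 1.02-fold in each genotype. At 40 min 20 zones were above 1 in Mcm6-SuOn and 48 in Mcm6-ctrl.

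**Figure D2:**
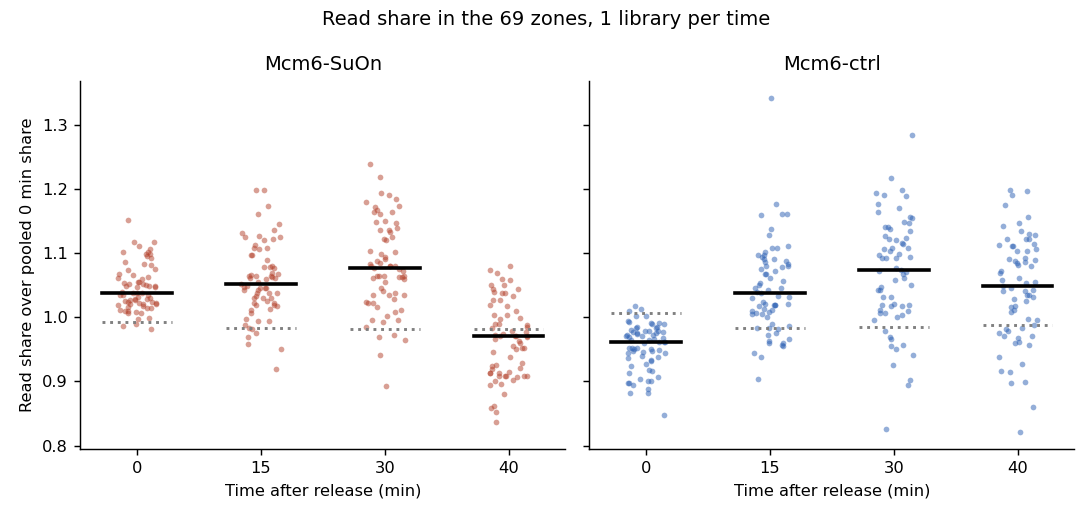
Read share over the pooled 0 min share in each of the 69 zones (points), by time after release, for Mcm6-SuOn (left) and Mcm6-ctrl (right). Black bars are medians over zones and dotted bars medians over all eligible windows. The Mcm6-SuOn median fell to 0.970 at 40 min, and the Mcm6-ctrl median was 1.05.

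The 15 min libraries did not enter the rule, and in them the zones stood above the pooled 0 min share in both genotypes. In Mcm6-SuOn they stood there already at 0 min, with the median of 1.04 given above, against 1.05 at 15 min. On this scale 667 of the 1061 members (62.9%) were in the top 20% of eligible windows at 15 min in Mcm6-SuOn, where 20% of all eligible windows lie by definition. In Mcm6-ctrl the number was 594 (56%), again against 20%. Of all eligible windows less than 80 kb from an end, 69.1% were in this top 20% in Mcm6-SuOn and 66.3% in Mcm6-ctrl. Members that near an end, 42.3% of all members, had 92.2% and 92.7%. Over the 0 min library of the same genotype the order of the genotypes turned, with 391 members (36.9%) in the top 20% in Mcm6-SuOn and 704 (66.4%) in Mcm6-ctrl. The median percentile of the members was 86.8 in Mcm6-SuOn and 82.8 in Mcm6-ctrl over the pooled share, and 72.7 and 87.9 over each genotype's own. Over the pooled share both genotypes were above 1 at 833 members (78.5%), against a background of 31.8%. By zone, 50 of 69 were above 1 in both genotypes, 8 in Mcm6-SuOn alone, 3 in Mcm6-ctrl alone and 8 in neither. The name "early in Mcm6-SuOn only" describes the 30 over 40 min ratio. Whether it holds at 15 min cannot be told from these levels, because the order of the genotypes depended on the 0 min counts used. The pooled levels of the genotypes share their denominator and are not independent of each other.

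The direct comparison of genotypes at the same time uses no 0 min library at the later times. The read share of Mcm6-SuOn over Mcm6-ctrl at 15 min had a median of 1.012 over zones (interval 1.005 to 1.028), with a range of 0.874 to 1.135. It was above 1 in 47 zones and below 1 in 22, and the counting interval lay wholly above 1 in 22 zones and wholly below in 7. Among windows, 796 members (75%) were above 1, against 52% of all eligible windows. Of windows early in both genotypes (top 15% of E in each), 66.7% were above 1. In the rolling median no member was above 1.1-fold, against a background of 0.0321%, and none was below 1/1.1, against 0.148%. The extremes were short zones, chosen after their values were seen: chromosome XV 291001 to 293000 at 1.135 (1.061 to 1.215) and chromosome V 57001 to 58500 at 0.874 (0.811 to 0.940). At 15 min the ratio was therefore above 1 at most zones, by little, and beyond counting error at 22 of them. Its median was 1.017 over member windows, 1.013 over windows early in both genotypes and 1.002 over eligible windows. The small excess of Mcm6-SuOn was thus not confined to the members.

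At 30 and 40 min, which the rule used, the same ratio had medians of 1.007 and 0.920 over zones. At 30 min 686 members (64.7%) were above 1, against 51.4% of eligible windows, and at 40 min 16 (1.51%) were, against 47.9%. At 40 min Mcm6-SuOn was lower in 63 of 69 zones, in 59 of them beyond counting error. Below 1/1.1-fold were 304 members (28.7%), against a background of 4.68%, a difference that the choice of members favours. The ratio of the zones thus centred just above 1 at 15 and 30 min and below 1 at 40 min.

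Before release the zones already held more reads in Mcm6-SuOn. At 0 min the ratio of read shares had a median of 1.079 over zones (interval 1.056 to 1.11), with a range of 0.964 to 1.36. It was above 1 in 64 of 69 zones, in 52 of them beyond counting error. Among windows, 1018 members (95.9%) were above 1, against 43.6%. Above 1.1-fold were 513 members (48.4%), against a background of 9.48%, and none was below 1/1.1, against 10.4%. Windows early in both genotypes, defined as the top 15% of E in each, showed the same at 0 min: their median was 1.101 in 1103 windows, and that of members 1.107. The difference at 0 min was thus not confined to the members. In 1038 windows early in Mcm6-ctrl only (its top 15%, outside the top 20% of Mcm6-SuOn) the median was 0.973, and over all eligible windows 0.986. Without chromosome IX, members had 1.095, and at least 80 kb from an end they had 1.07, against 0.974 for all eligible windows that far inside.

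**Figure D3:**
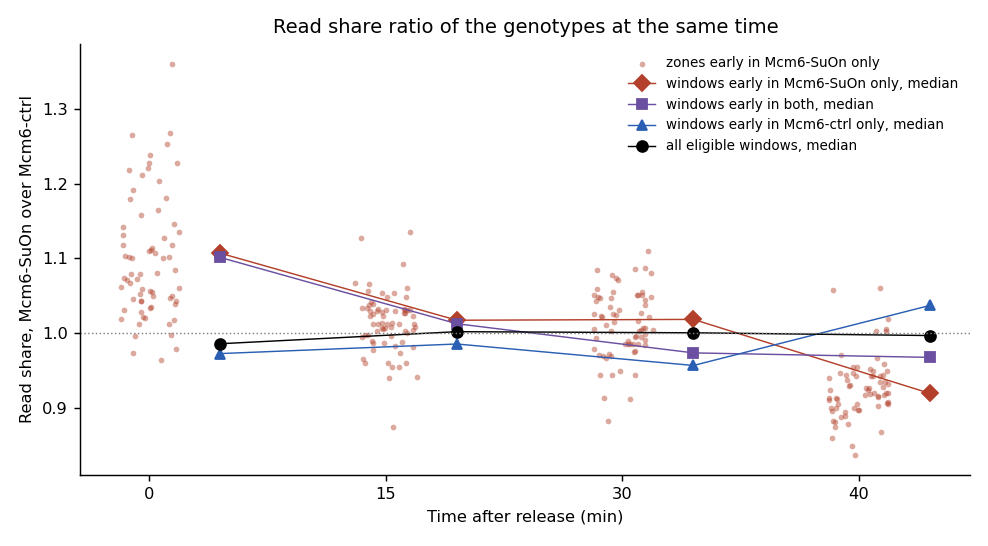
Read share of Mcm6-SuOn over Mcm6-ctrl at each time, with 1 point per zone and, to the right, medians over windows of 4 sets. Zones centre at 1.079 before release, 1.012 at 15 min, 1.007 at 30 min and 0.920 at 40 min, while the median of all eligible windows stays between 0.986 and 1.002.

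The sign of the 15 min difference depended on which 0 min counts it was set against. Taken over the 0 min library of the same genotype, as deposited, the 15 min copy number of the zones had a median of 1.011 in Mcm6-SuOn (interval 1.000 to 1.022) and 1.071 in Mcm6-ctrl (1.060 to 1.103). Eligible windows had medians of 0.992 in Mcm6-SuOn and 0.975 in Mcm6-ctrl. The median difference over zones, Mcm6-SuOn minus Mcm6-ctrl, was -0.0645 (-0.0874 to -0.0461), and 60 of 69 zones were lower in Mcm6-SuOn. Among windows, 956 members (90.1%) were lower, against 40% of eligible windows, and 398 (37.5%) were below 1/1.1-fold, against 7.57%. Windows early in both genotypes had 91.8% and 40.5%, so that neither was confined to the members. Over the pooled 0 min counts the difference turned to 0.0126. The deposited ratio was thus lower in Mcm6-SuOn at most zones, and the 15 min read share was higher at most.

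Members lay toward chromosome ends. Of the 1061 members, 449 (42.3%) were less than 80 kb from an end, a limit chosen after the values were seen, against 13.9% of eligible windows. The share was 27% among windows early in both genotypes and 0.0963% among those early in Mcm6-ctrl only. Members made up 23.1% of eligible windows up to 60 kb from an end, 17.3% between 60 and 80 kb, 7.37% between 80 and 120 kb, 8.19% between 120 and 200 kb and 2.45% beyond. With the authors' factor that sets each chromosome's mean to 1, 401 of 1007 members (39.8%) were less than 80 kb from an end. The 0 min ratio of the genotypes rises toward the ends over the same distances, although no 0 min reads enter E, and its part in this was not tested.

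Members away from the ends had similar ratios at the later times. At the 612 members at least 80 kb from an end, the ratio of Mcm6-SuOn over Mcm6-ctrl had medians of 1.021 at 15 min, 1.018 at 30 min and 0.922 at 40 min. Eligible windows that far inside had 1.001, 1.000 and 1.004. At 15 min 41.3% of these members were in the top 20% over the pooled share in Mcm6-SuOn, against 12.1% of inner eligible windows. The same shares were 29.1% and 12.5% in Mcm6-ctrl. Over each genotype's own 0 min library the order turned here too, with 20.6% in Mcm6-SuOn, against 13.7% of inner eligible windows, and 46.4% in Mcm6-ctrl, against 12.5%.

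Chromosome IX held more members than any other of the 11 chromosomes, 259 windows in 10 zones. They were 34.3% of its eligible windows, and 24.4% of all members lay on this chromosome, against 4.85% of eligible windows. Chromosome VIII followed with 137 windows (14%), and chromosomes XI, XV and XIII had the lowest shares at 2.65%, 2.78% and 2.85%. This ranking changed once whole chromosomes were scaled. With the authors' chromosome factor, chromosome IX held 54 members (7.15% of its eligible windows). At 0 min chromosome IX had a median ratio of Mcm6-SuOn over Mcm6-ctrl of 1.09, against 0.948 on chromosome XVI, which had the lowest. At 15, 30 and 40 min the chromosome IX medians were 1.02, 1.027 and 0.939. The part of these whole-chromosome values in the count of members was not tested further.

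**Figure D4:**
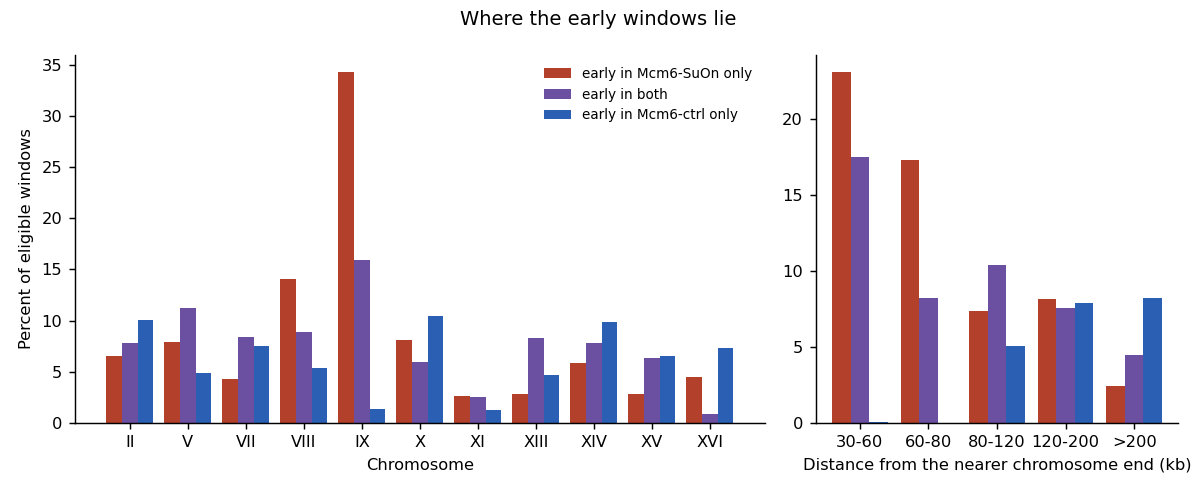
Percent of eligible windows that were early in Mcm6-SuOn only, in both genotypes or in Mcm6-ctrl only, by chromosome (left) and by distance from the nearer chromosome end (right). Members reach 34.3% on chromosome IX and 23.1% up to 60 kb from an end, and the windows early in Mcm6-ctrl only reach at most 0.0770% within 80 kb.

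The 10 zones with the most member windows, called the longest here, held 382 windows (36% of members), 5 of them on chromosome IX and 6 less than 80 kb from an end. Positions are those of the deposited windows on sacCer2. No annotation of this build was used here, so genes and origins in the zones are not named. The longest zone ran from 156501 to 187500 on chromosome IX, 156.5 kb from the nearer end. Its level over the pooled 0 min share was 1.054, 1.046, 1.046 and 0.921 in Mcm6-SuOn at 0, 15, 30 and 40 min, and 0.946, 1.014, 1.001 and 1.017 in Mcm6-ctrl. The direct ratio of Mcm6-SuOn over Mcm6-ctrl stood at 1.031 (1.017 to 1.046) for 15 min and 0.905 (0.894 to 0.917) for 40 min. In summed reads its E was 1.13 in Mcm6-SuOn (1.12 to 1.145) and 0.982 in Mcm6-ctrl (0.969 to 0.995). Here the control libraries hardly differed from 15 to 40 min, and the 40 min library of Mcm6-SuOn was the low one.

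Of the other long zones on chromosome IX, those nearest the ends had higher levels at 15 and 30 min than the longest zone. At 43001 to 66000 the level was 1.112, 1.162, 1.12 and 0.971 in Mcm6-SuOn, and 0.888, 1.108, 1.097 and 1.072 in Mcm6-ctrl. At 364501 to 388500 it was 1.118, 1.122, 1.085 and 0.946 in Mcm6-SuOn, against 0.882, 1.097, 1.033 and 1.029 in Mcm6-ctrl. After release both were raised in all libraries except Mcm6-SuOn at 40 min. At 0 min, where the levels of the genotypes mirror each other, Mcm6-SuOn was the higher. The zone at 84001 to 101500, further from an end, was also above the longest zone at 15 and 30 min. Its level was 1.073, 1.126, 1.168 and 0.988 in Mcm6-SuOn, and 0.927, 1.097, 1.120 and 1.112 in Mcm6-ctrl. At 30 min this was higher than in the zones nearest the ends. E in summed reads was 1.18 there in Mcm6-SuOn (1.16 to 1.20), the highest of the 10, and 1.005 in Mcm6-ctrl (0.987 to 1.02). At 216501 to 233000 it was 1.09 in Mcm6-SuOn (1.07 to 1.11) and 1.04 in Mcm6-ctrl (1.03 to 1.06), and the Mcm6-SuOn interval reached across the threshold.

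The long zones on other chromosomes also held a smaller share of reads at 40 than at 30 min in Mcm6-SuOn. At chromosome VIII 512501 to 532000 the level was 1.0997, 1.097, 1.165 and 1.003 in Mcm6-SuOn, and 0.900, 1.103, 1.138 and 1.112 in Mcm6-ctrl. At chromosome II 768501 to 782500, the highest of the 10 at 30 min, it was 1.117, 1.198, 1.239 and 1.058 in Mcm6-SuOn, against 0.883, 1.16, 1.194 and 1.198 in Mcm6-ctrl. At chromosome X 40501 to 57500 the level was 1.068, 1.114, 1.136 and 1.034 in Mcm6-SuOn, against 0.932, 1.081, 1.048 and 1.086 in Mcm6-ctrl. The share at this zone was larger at 40 than at 30 min in Mcm6-ctrl. At chromosome XIV 66001 to 83500 the level was 1.048, 1.079, 1.133 and 1.018 in Mcm6-SuOn, and 0.952, 1.075, 1.149 and 1.107 in Mcm6-ctrl. The zone at chromosome V 187001 to 204000 had levels of 1.062, 1.019, 1.008 and 0.895 in Mcm6-SuOn and 0.938, 0.983, 1.004 and 0.982 in Mcm6-ctrl. On this scale it was the only one of the 10 in which the 2 genotypes were not both above 1 at 15 min. The authors' ratio with the chromosome factor, over the same genotype's 0 min library, gave a different picture. Chromosome IX 156501, 216501 and 364501 then also stood below 1 in Mcm6-SuOn, at 0.969, 0.975 and 0.980. In Mcm6-ctrl they stood at 0.950, 0.915 and 1.106, so that chromosome IX 156501 and 216501 were below 1 in both genotypes. Apart from chromosome V 187001, the other long zones stood above 1 in both genotypes. The direct ratio at 15 min was above 1 in 9 of the 10 zones, in 7 of them beyond counting error, and the exception was chromosome VIII 512501 at 0.995 (0.978 to 1.012).

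**Figure D5:**
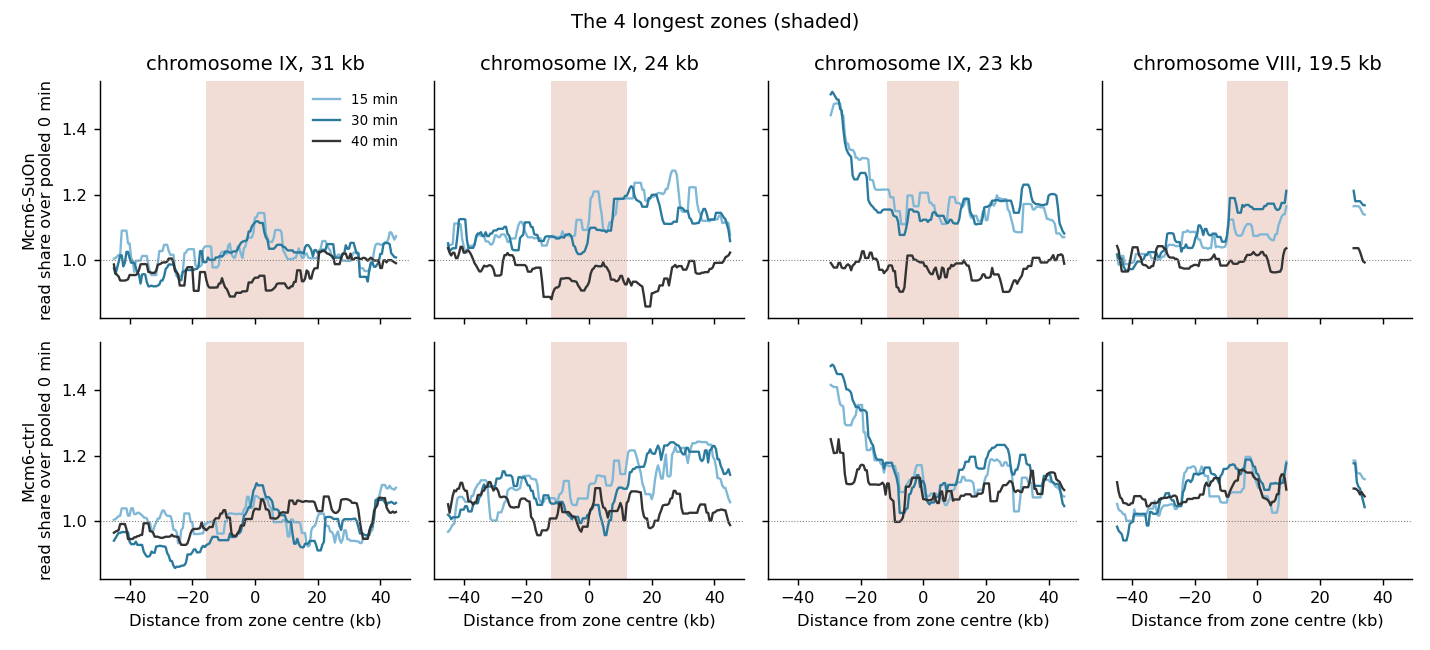
Read share over the pooled 0 min share around the 4 zones with the most windows (shaded), plotted against distance from the zone centre, for Mcm6-SuOn (upper row) and Mcm6-ctrl (lower row) at 15, 30 and 40 min. Lines are rolling medians of 7 windows and break where windows were left out. Over the zones the 40 min level is the lowest of the 3 in Mcm6-SuOn, with levels of 0.921 to 1.003, and is nearer the others in Mcm6-ctrl, with 1.017 to 1.112.

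The zones at both extremes of the deposited 15 min difference also differ in their 0 min ratio, which enters that difference, so that the contrast is largely fixed by how they were picked. The 5 most negative, among zones of at least 5 windows, were chromosome VIII 30501 to 42500 (-0.330), chromosome VIII 68001 to 74500 (-0.290), chromosome XVI 31001 to 35000 (-0.244), chromosome II 768501 (-0.241) and chromosome IX 364501 (-0.240). All 5 lay within 70 kb of an end. Their 0 min ratios lay between 1.21 and 1.36, and their direct ratios at 15 min between 0.941 and 1.03. The 5 most positive were chromosome XI 336501 to 341500 (0.123), chromosome X 427501 to 438000 (0.0277), chromosome XVI 189501 to 197500 (0.0155), chromosome XVI 63001 to 68500 (0.0110) and chromosome VII 459501 to 468500 (0.00965). Their 0 min ratios lay between 0.964 and 1.06. The zone on chromosome XI had a level of 1.031 in Mcm6-SuOn and 0.944 in Mcm6-ctrl at 15 min, a direct ratio of 1.092 (1.052 to 1.134). It was thus above its 0 min share in Mcm6-SuOn and below it in Mcm6-ctrl.

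Few zones were centred on local peaks of copy number, the shape that an efficient origin gives to a profile. At 15 min 7 of 69 zone centres (10.1%) lay within 5 kb of one of the 191 peaks of Mcm6-SuOn, counted at a prominence of at least 0.05 in the authors' smoothed profile, with a median distance of 14.25 kb. The background was 17.4% of eligible windows. For the 201 peaks of Mcm6-ctrl the number was 11 (15.9%), against 18.8%. By window, 84 members (7.92%) were as near a Mcm6-SuOn peak at 15 min, against 28.6% of windows early in both genotypes and 34.5% of those early in Mcm6-ctrl only. Near a Mcm6-ctrl peak at 40 min, a time that the rule used, by contrast, were 242 members (22.8%). This compares with 10.7% of eligible windows and 9.61% of windows early in both. Nearness to Mcm6-SuOn peaks after 15 min, and to Mcm6-ctrl peaks between 15 and 40 min, is not given here. Whether the excess was specific to Mcm6-ctrl or to 40 min therefore cannot be told.

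Some zones bordered on DNA that was early in both genotypes. Of the 69 zones, 34 lay within 5 kb of a window early in both, and 22 were more than 50 kb from any. By window, 275 members (25.9%) lay that near, against 6.06% of all eligible windows not early in both and 17.1% of those early in Mcm6-ctrl only. Neighbouring windows share most of the rolling median by which the rule chose them, so that nearness is not independent of it. The 34 adjoining zones had a median E of 1.11 in Mcm6-SuOn and 1.04 in Mcm6-ctrl, and the 35 others had 1.09 and 1.02. At 15 min the direct ratio had medians of 1.0123 and 1.0129 in these sets, and at 40 min 0.920 and 0.924. Adjoining and separate zones thus differed little in these medians.

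Compared with windows early in both genotypes, members differed at 40 min and in Mcm6-ctrl, the measures that separate the sets by rule. Members had median levels of 0.966 in Mcm6-SuOn and 1.06 in Mcm6-ctrl at 40 min, and windows early in both had 0.937 and 0.977. Over the pooled share at 15 min, a time that the rule did not use, members lay close to windows early in both. Members had 1.069 in Mcm6-SuOn and 1.05 in Mcm6-ctrl. Windows early in both had 1.085 and 1.071, and those early in Mcm6-ctrl only had 0.990 and 1.009. Over all eligible windows the 15 min medians were 0.984 and 0.983 on this scale. Members and windows early in both lay further apart over each genotype's own 0 min library. In the top 20% were 36.9% of members and 53.8% of windows early in both in Mcm6-SuOn, and 66.4% and 74% in Mcm6-ctrl. They also differed in nearness to Mcm6-SuOn peaks at 15 min, as given above.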

How the data were processed

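Values were given for windows of 1000 bp every 500 bp. The 0 min files hold deposited read counts, not normalized, per the file headers. At each later time the authors deposited a ratio over the 0 min count of that genotype, the same scaled by chromosome, and a smoothed version, per the file headers. Per the submitters' processing notes the genome was sacCer2. The aligner, filters and smoothing method are not stated in the labels. Reads of later libraries were recovered as ratio times 0 min count. This came out whole within the rounding of the ratio in 100% of the windows checked. Those had at most 1000 reads at 0 min and a ratio above 0 (124 to 220 windows per Mcm6-SuOn library and 1238 to 1247 per Mcm6-ctrl library). The 1121 to 1262 others up to that depth per library are listed at 0 and could not be checked. Windows with more than 1000 reads at 0 min were not checked in this way. Shares are over the 22843 windows valid in all libraries. The rolling median needed 11 valid windows of 21, filtered first. Reads of a zone are its window sum over 2, since windows overlap. Python 3.11.15, numpy 2.4.6, pandas 2.3.3 and scipy 1.17.1 were used, and the rule was tested on simulated counts. Members, sets and rules were chosen with earlier results of these data known. Named zones were the 10 with the most windows, and the 5 lowest and 5 highest in deposited 15 min difference among zones of at least 5 windows. Alternatives changed the column, thresholds, smoothing span, end distance and 0 min denominator. No genome of this build was used here, so no sequence is printed.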

Additional observations from a re-analysis of the deposited data

How the results depend on the processing

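No paired analysis was possible because each genotype has 1 library per time and the labels give no replicate numbers. Of 153 alternative values, 132 stayed within the interval of the main value or within 1.5 times the main count, 20 moved beyond and 1 reversed. The reversal was the deposited 15 min difference of -0.0645, which was 0.0126 over the pooled 0 min counts, a setting that takes the 0 min difference between genotypes out; the zone medians were then 1.052 in Mcm6-SuOn and 1.038 in Mcm6-ctrl. With the top 10% of E in Mcm6-SuOn there were 581 members, a median E of 1.118 and 4 zones with a 15 min peak. With the top 20%, median E was 1.085 and the 40 min ratio 0.937. Outside the top 30% of Mcm6-ctrl, its median E was 1.017. A rolling median of 41 windows gave 41 zones. Zones with a 15 min peak numbered 4 with the chromosome factor, 4 with smoothed ratios, 4 among zones of at least 5 windows and 1 at a prominence of 0.1. With the chromosome factor the 15 min median in Mcm6-ctrl was 1.057. Leaving out zones less than 80 kb from an end, a setting chosen after the data were seen like that without chromosome IX, left 601 members in 42 zones, with a 15 min median of 1.060 in Mcm6-ctrl, a difference of -0.0459, 2 zones with a peak and a 0 min ratio of 1.054. The direct 15 min ratio stayed between 1.012 and 1.024 and the 40 min ratio between 0.917 and 0.937 in all 14 settings run. The interval of the 15 min ratio reached below 1 without chromosome IX (0.9999 to 1.026) and in no other setting. Which windows were members depended on the column: 644 of 1061 (60.7%) were also members with the chromosome factor and 624 (58.8%) with smoothed ratios. Beyond the changes that each setting makes to members or denominator, the cause was not tested.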
